A study of Mus musculus with 8 samples.

Results

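Ago1, Ago2, Ago3, Ago4, Tnrc6a, Tnrc6b, Tnrc6c, Dicer1, Drosha and Dgcr8 are the genes that make microRNAs and carry out their silencing. These 10 genes were chosen by name, not by their values, and all 10 were present among the 14884 genes of the deposited count table. They were compared between cortex injected with an inhibitor of the microRNA miR-218-5p (LNA218) and cortex injected with a scrambled negative control (NC). Both groups came from the same 4 adult male wild-type mice, 3 months old, and tissue was taken 10 days after stereotactic injection into the primary somatosensory cortex. Each mouse carried LNA218 in one hemisphere, the right in mice 33, 34 and 36 and the left in mouse 35, and NC in the opposite hemisphere. Polyadenylated RNA of each hemisphere was sequenced as 1 library, giving 4 libraries per group and 8 in all. An LNA inhibitor is an antisense oligonucleotide with locked, tightly pairing nucleotides that binds a mature microRNA and blocks it. The tissue is whole cortex at the injection site, so every level is an average over neurons, glia and vessels.

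MicroRNAs are cut from hairpin transcripts in consecutive steps. In the nucleus, the ribonuclease Drosha and its RNA-binding partner Dgcr8 form the Microprocessor, which releases the hairpin, and in the cytoplasm Dicer1 trims the hairpin to a short duplex. One strand is loaded into an Argonaute protein (Ago1 to Ago4), which is guided by the microRNA's seed to matching sites in 3′ UTRs. The Argonaute binds a TNRC6 scaffold (Tnrc6a, Tnrc6b or Tnrc6c, the mammalian GW182 proteins), which recruits deadenylases that shorten the poly(A) tail of the target. In neurons this machinery also acts in dendrites, near synapses.

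The inhibited microRNA is shown first because its seed defines the sites searched for in the 10 genes. The mature miR-218-5p of RefSeq is encoded by Mir218-1 at chr5:48223966-48223986 and by Mir218-2 at chr11:35616840-35616860, both on the plus strand of GRCm38.p6. Both loci give the same sequence, printed with the seed (bases 2 to 8) in capitals.
mmu-miR-218-5p: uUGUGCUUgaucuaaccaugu
In the RefSeq table, 2 mature mouse microRNAs had this seed, mmu-miR-218-5p and mmu-miR-7002-3p.

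Matches to the seed, spelled AAGCACA (7mer-m8), and the longer AAGCACAA (8mer, which contains the 7mer), were searched on the sense strand of the annotated 3′ UTR of each gene's transcript with the longest coding sequence (GENCODE M21, built on GRCm38). Of the 10 genes, 4 held at least 1 match, 9 in all. The sites of the 3 Argonautes with an 8mer and the single site of Tnrc6b follow with their flanks, the match in capitals, each named by the first base of the match counted from the start of the 3′ UTR.
Ago2, chromosome 15, base 1142: ctcagccgatgAAGCACAAatggaatttat
Ago2, chromosome 15, base 6306: aaaatccagggAAGCACAgggtgctagata
Ago2, chromosome 15, base 10389: gaatctcccccAAGCACAcccgaggaaaag
Ago3, chromosome 4, base 4592: ccatcgggctcAAGCACAcgggcgtgcgcg
Ago3, chromosome 4, base 9313: ttcaggtggcaAAGCACAtgcatggcaaac
Ago3, chromosome 4, base 9396: ccaagaacagcAAGCACAAactggtgggct
Ago4, chromosome 4, base 1959: tcctgtgactgAAGCACAAcacaggcgtga
Ago4, chromosome 4, base 2103: ctgttcagggaAAGCACAgaaaatgctctg
Tnrc6b, chromosome 15, base 4774: agccaaaagaaAAGCACAggtgtaggaatg
Ago2, Ago3 and Ago4 each held 1 8mer, and every other match was a 7mer. No match was found in the annotated 3′ UTRs of Ago1, Tnrc6a, Tnrc6c, Dicer1, Drosha and Dgcr8.

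The share of genes with a site has to be read against UTR length, because these genes have long 3′ UTRs. A 7mer-m8 was present in 40.0% of the 10 genes, against 14.2% of the 13687 tested genes with an annotated 3′ UTR, and an 8mer in 3 of the 10 against 4.09%. The 3′ UTRs measured 12742 bases in Ago3, 11609 in Tnrc6b and 11064 in Ago2, longer than those of at least 99.8% of tested genes, and 3682 bases in Ago4, against a median of 1003 bases over the tested genes. Among the 40 tested genes whose 3′ UTR was longer than 10000 bases, 72.5% held a 7mer-m8 and 22.5% an 8mer. Per kilobase of 3′ UTR, the 10 genes held 0.166 sites and all tested genes 0.114. Drosha had the shortest 3′ UTR of the 10, with 168 bases.

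**Figure D1:**
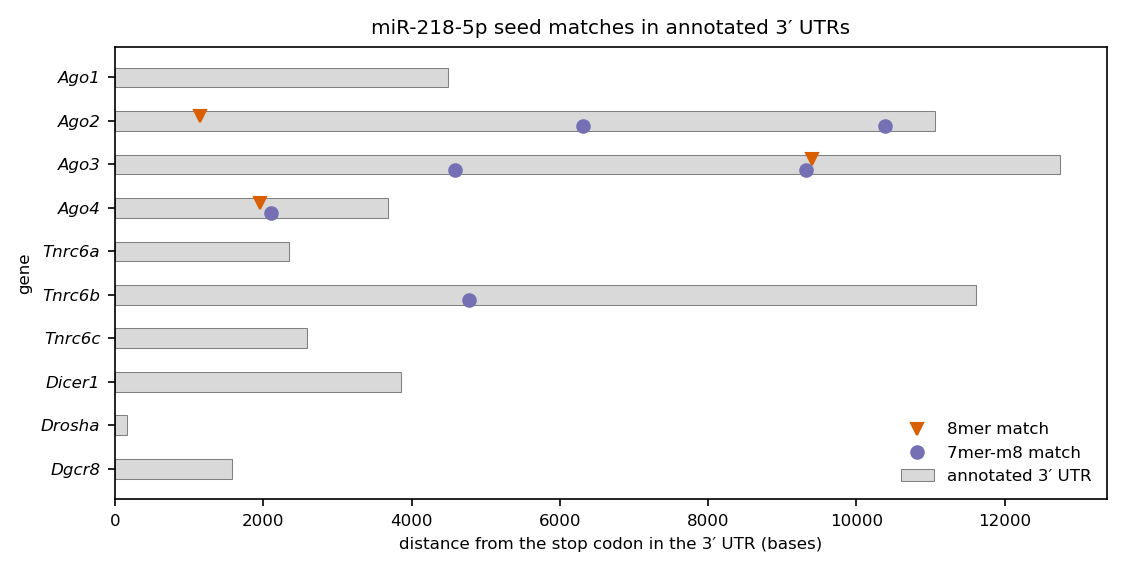
Each horizontal bar is the annotated 3′ UTR of the transcript with the longest coding sequence of 1 of the 10 genes, drawn to scale in bases from its start, and marks show the matches to the miR-218-5p seed, with 8mers and 7mers drawn differently. Only Ago2, Ago3, Ago4 and Tnrc6b carry marks, and 3 of these 4 have a 3′ UTR of over 10000 bases.

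Libraries held between 17511329 and 25154657 estimated counts in LNA218 and between 17409882 and 22925709 in NC. At the lowest count of each gene, counting error alone came to 7.78% for Ago4 and to between 2.24% and 4.83% for the other 9. Levels are given as CPM, which are counts scaled to a common library total and for library composition. The tissue label was checked on 8 markers of cortical excitatory neurons, which were all present in every library and summed to between 5100 and 6105 CPM in LNA218 and between 5847 and 5985 CPM in NC. Markers of choroid plexus, the secretory epithelium of the ventricles, summed to 92.1, 2640, 27.8 and 1729 CPM in LNA218 of mice 33 to 36, against 36.5, 38.99, 27.9 and 89.8 CPM in NC. All 8 tested choroid plexus markers were higher in LNA218 (median log2 fold change 2.64), and none of the list was at 0 in any library. By fitted fold change, 6 of 6 fibroblast markers were higher too. They summed to 83.3, 89.1, 93.9 and 53.7 CPM in LNA218 of mice 33 to 36, against 42.55, 39.8, 55.3 and 59.8 CPM in NC. The fibroblast sum was thus lower in LNA218 in mouse 36. Mitochondrially encoded RNAs summed to 18460 CPM in LNA218 of mouse 34 and 23280 CPM in LNA218 of mouse 35, and to between 31180 and 36340 CPM in the other 6 libraries. Striatal neuron markers summed to 150.8, 278.9, 165.3 and 295.9 CPM in LNA218 of mice 33 to 36. In NC of the same mice they summed to 280.8, 122.5, 192.4 and 185.8 CPM. LNA218 was thus lower in mice 33 and 35 and higher in mice 34 and 36. The part of tissue composition and library quality in the results below was not tested, and in bulk tissue fewer cells of a type and less RNA per cell cannot be told apart.

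None of the 10 genes passed the test between LNA218 and NC. All 10 had a negative fitted log2 fold change, with a median of -0.19, but the 95% interval of each spanned 0. The test was edgeR's quasi-likelihood test with the animal as a block, adjusted over all 14506 genes tested by the Benjamini-Hochberg method, and the adjusted p was 0.999 for each of the 10. The same test called 0 of 14506 genes (0.0%) at an adjusted p under 0.05, with a lowest adjusted p of 0.533, and 247 genes (1.7%) at an unadjusted p under 0.05, 0 of them among the 10. DESeq2 called 13 genes and edgeR's likelihood-ratio test 11, again 0 of the 10. A negative fold change was found in 52.8% of all genes tested, with a median of -0.0096. The count of 10 of 10 rests on mouse 34, since without it 6 of the 10 had a negative fold change and their median was -0.0022.

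The Argonautes hold the mature microRNA, and they had a median log2 fold change of -0.22, which was -0.026 without mouse 34. Ago2, the Argonaute that can cut a fully paired target, was at 85.4, 67.3, 78.4 and 64.8 CPM in LNA218 of mice 33, 34, 35 and 36, against 84.1, 101.6, 78.4 and 74.1 CPM in NC. The hemispheres of mice 33 and 35 were near equal, LNA218 was lower in mice 34 and 36, and the groups overlapped. Its means were 74.0 ± 9.61 CPM in LNA218 and 84.5 ± 12.1 CPM in NC (SD, n = 4 each), a log2 fold change of -0.19 ± 0.13 (SE; 95% interval -0.48 to 0.10). Ago1 was at 89.9, 74.8, 88.6 and 73.5 CPM in LNA218 of the same mice, against 83.5, 95.1, 84.9 and 83.4 CPM in NC. LNA218 was higher than NC in mice 33 and 35 and lower in mice 34 and 36, and its log2 fold change was -0.09 ± 0.11.

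Ago3 had the lowest fitted fold change of the 10 and, with Ago2 and Tnrc6b, one of the longest 3′ UTRs. It was at 35.0, 18.2, 23.9 and 26.3 CPM in LNA218 of mice 33, 34, 35 and 36, against 29.3, 45.4, 30.02 and 24.8 CPM in NC. Mouse 34 held both the lowest and the highest library, with a difference of -1.31 on the log2 scale, while the other mice differed by 0.25, -0.33 and 0.08. Averages were 25.8 ± 6.97 CPM in LNA218 and 32.4 ± 8.96 CPM in NC (SD, n = 4 each), a log2 fold change of -0.33 ± 0.24 (SE; 95% interval -0.88 to 0.23). Its coefficient of variation was the widest of the 10, at 27.0% in LNA218 and 27.7% in NC. Without mouse 34 the log2 fold change of Ago3 was 0.0048.

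Ago4, the least abundant Argonaute, was the one gene of the 10 that was lower in LNA218 in every mouse. Its levels were 9.29, 7.84, 8.37 and 10.1 CPM in LNA218 of mice 33, 34, 35 and 36, against 9.78, 11.5, 9.496 and 11.4 CPM in NC. The differences were -0.07, -0.54, -0.18 and -0.17 on the log2 scale, yet the groups overlapped, because LNA218 of mouse 36 was above NC of mice 33 and 35. Means were 8.90 ± 1.001 CPM in LNA218 and 10.5 ± 1.04 CPM in NC (SD, n = 4 each), a log2 fold change of -0.25 ± 0.14 (SE; 95% interval -0.57 to 0.08; unadjusted p = 0.116 and adjusted p = 0.999 by edgeR's quasi-likelihood test). That p was the smallest of the 10. Of all genes tested, 4.05% were lower in LNA218 in 4 of 4 mice and 4.58% higher in 4 of 4, against 1 and 0 of the 10. In 0.648% of all genes tested the LNA218 libraries all lay below the NC libraries, which held for 0 of the 10.

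**Figure D2:**
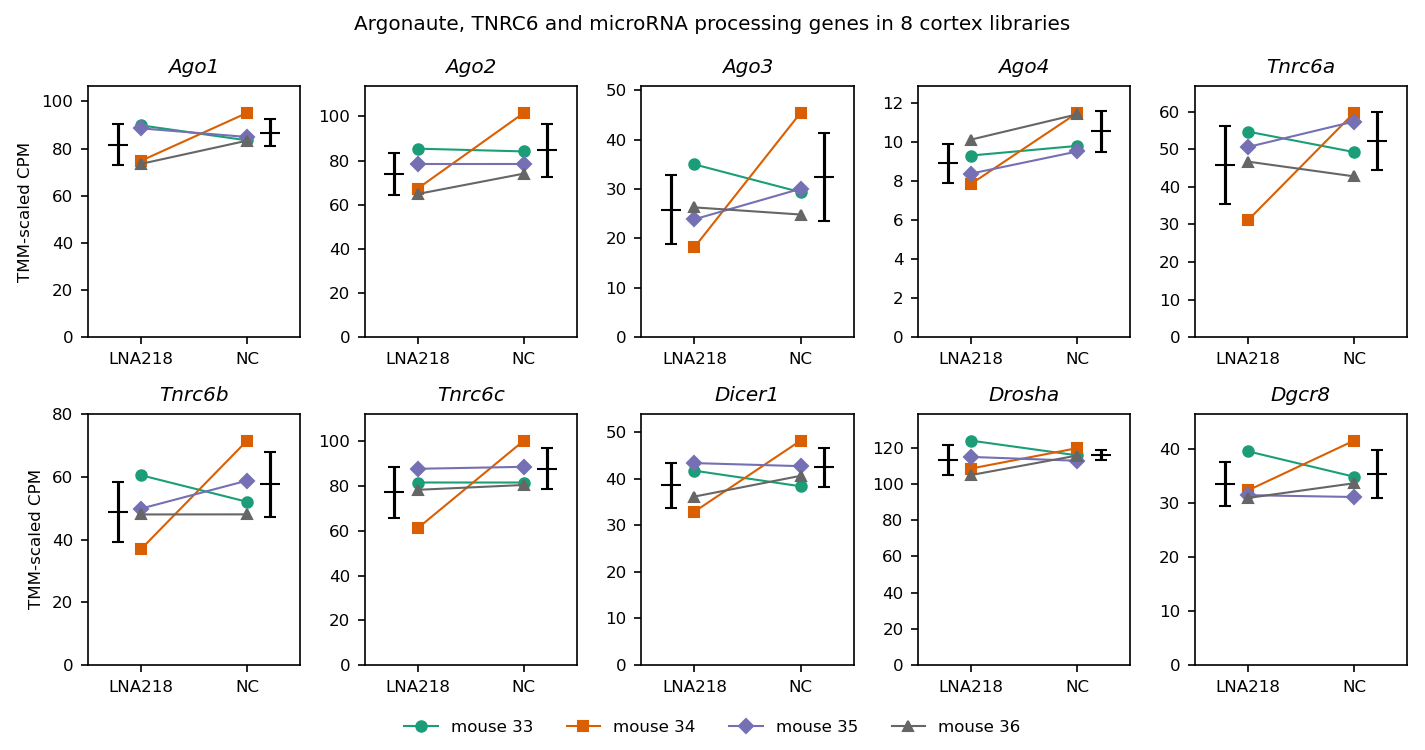
Each panel shows 1 gene, with CPM on the vertical axis, LNA218 on the left and NC on the right; points are libraries, lines join the hemispheres of a mouse, and the bars beside them give the mean and SD. Mouse 34 has the steepest line in most panels, and LNA218 and NC overlap in each panel.

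The TNRC6 scaffolds, which link Argonautes to the deadenylases, had a median log2 fold change of -0.21, which was -0.0038 without mouse 34. Tnrc6a was at 54.7, 31.1, 50.6 and 46.7 CPM in LNA218 of mice 33, 34, 35 and 36, against 49.3, 59.7, 57.4 and 42.8 CPM in NC. LNA218 was lower in mice 34 and 35 and higher in mice 33 and 36, so the mice did not share a direction. Its means were 45.8 ± 10.3 CPM in LNA218 and 52.3 ± 7.75 CPM in NC (SD, n = 4 each), a log2 fold change of -0.21 ± 0.18 (SE; 95% interval -0.63 to 0.22). Tnrc6b was at 60.6, 37.0, 49.9 and 48.1 CPM in LNA218, against 52.1, 71.6, 58.9 and 48.1 CPM in NC, and its log2 fold change was -0.24 ± 0.18. The 2 genes had a like profile over mice: differences of 0.15, -0.94, -0.18 and 0.13 for Tnrc6a and of 0.22, -0.95, -0.24 and -0.0008 for Tnrc6b. Tnrc6c, the scaffold with the highest CPM, was at 81.6, 61.2, 87.8 and 78.4 CPM in LNA218, against 81.6, 100.4, 88.7 and 80.5 CPM in NC. The hemispheres of mice 33, 35 and 36 were within 0.04 of each other on the log2 scale and mouse 34 differed by -0.71, so the log2 fold change of Tnrc6c, -0.19 ± 0.14, was -0.014 without that mouse.

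The 3 processing genes had a median log2 fold change of -0.07, which was -0.0011 without mouse 34. Drosha, the nuclear ribonuclease, was at 123.9, 108.5, 114.9 and 105.0 CPM in LNA218 of mice 33, 34, 35 and 36, against 115.8, 119.8, 112.8 and 115.7 CPM in NC. It was the steadiest of the 10, with a coefficient of variation of 7.36% in LNA218 and 2.48% in NC. Its log2 fold change was -0.04 ± 0.09 (SE; 95% interval -0.26 to 0.18, or 0.836-fold to 1.13-fold). Dgcr8, its partner, was at 39.5, 32.3, 31.4 and 30.9 CPM in LNA218, against 34.8, 41.5, 31.1 and 33.6 CPM in NC, a log2 fold change of -0.07 ± 0.12. Drosha counts per Dgcr8 count came to 3.39 ± 0.215 in LNA218 and 3.32 ± 0.316 in NC (SD, n = 4 each), lowest in NC of mouse 34 at 2.89. Dicer1, which cuts the hairpin in the cytoplasm, was at 41.8, 33.0, 43.4 and 36.2 CPM in LNA218, against 38.4, 48.2, 42.8 and 40.7 CPM in NC, a log2 fold change of -0.14 ± 0.13 (SE; 95% interval -0.45 to 0.16). LNA218 was higher in mice 33 and 35 and lower in mice 34 and 36 for Drosha, Dgcr8 and Dicer1.

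Dgcr8 is the least certain of these counts. Of the 31-base words of its transcript with the longest coding sequence, 28.0% also occurred in transcripts of other annotated genes. Among them, 795 words occurred in Trmt2a, which overlaps Dgcr8 on the opposite strand and had between 484.4 and 910.1 counts per library. Whether counting used strand is not given in the sources used here, so reads of the overlap with Trmt2a cannot be told apart. Dgcr8 also shared 298 words with Gm49776 on the same strand of chromosome 16. With the processed pseudogene Gm43555 on chromosome 3 it shared 215 words. Ago2 shared 7.39% of its words, 628 words with the processed pseudogene Gm6088, which had no row in the table, and 192 with Chrac1 on the opposite strand. The other 8 genes shared 2.27% or less, and Tnrc6c shared 0%. Ago3, Ago1 and Ago4 are consecutive protein-coding genes on chromosome 4, and Ago1 shared 140 words with Ago3.

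**Figure D3:**
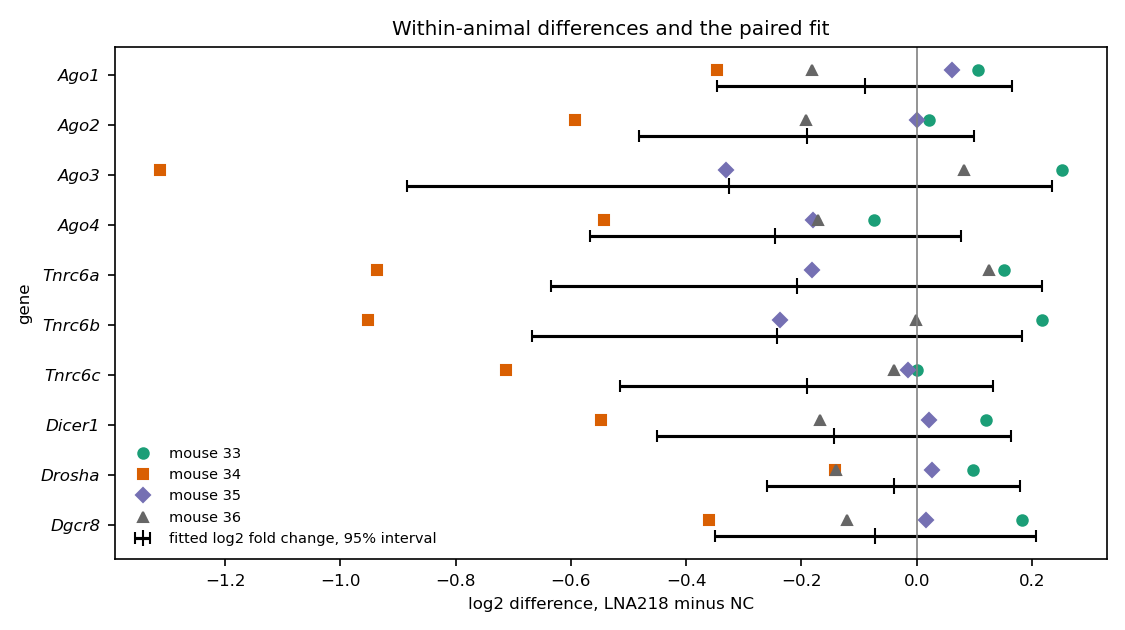
Log2 difference of LNA218 minus NC within each mouse (points, by mouse) and the fitted log2 fold change with its 95% interval (bar) for each of the 10 genes. The interval spans 0 for each gene, and the points of mouse 34 lie lowest for each gene, for Drosha beside those of mouse 36.

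The differences varied from mouse to mouse in much the same way for most of the 10 genes. In mice 33, 34, 35 and 36, their median log2 difference was 0.11, -0.57, -0.0073 and -0.13, while the median over all genes tested was 0.0006, 0.018, -0.0035 and -0.0068. LNA218 was lower for 1, 10, 6 and 8 of the 10 genes in mice 33 to 36. LNA218 of mouse 34 was the lowest of the 8 libraries for 6 genes (Ago3, Ago4, Tnrc6a, Tnrc6b, Tnrc6c and Dicer1) and LNA218 of mouse 36 for the other 4. NC of mouse 34 was the highest of the 8 libraries for 9 genes, and LNA218 of mouse 33 was the highest for Drosha.

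The differences of all genes also followed base composition, most strongly in mice 33 and 34 and in opposite directions. Over 10324 genes, the difference between the hemispheres correlated with the GC content of the transcript with the longest coding sequence at a Spearman rho of -0.616, 0.688, 0.232 and -0.211 in mice 33, 34, 35 and 36. Over the 10 genes rho was -0.721, 0.673, 0.709 and -0.515. These values run across genes, which share libraries and are not independent. Ago3 has the lowest GC content of the 10, with 41.8%, and genes in the bin centred on 41.0% GC had a median difference of 0.19, -0.67, -0.11 and 0.08 in mice 33 to 36, against the 0.25, -1.31, -0.33 and 0.08 of Ago3. Tnrc6c has the highest, with 53.9%, and in the bin centred on 53.0% GC the medians were -0.07, 0.14, 0.03 and -0.04, against 0.0002, -0.71, -0.014 and -0.039 for Tnrc6c.

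Length moved with the difference as well. All 10 genes have transcripts longer than those of at least 71.4% of tested genes, from 4320 bases in Dgcr8 to 17332 bases in Tnrc6b, against a median of 3074 bases. Over all genes the rho with length was 0.344, -0.570, 0.122 and -0.277 in mice 33 to 36, and over the 10 genes 0.358, -0.818, -0.576 and 0.236. With the levels of each library corrected for GC content and length, the median over the 10 genes was 0.031, -0.145, -0.055 and -0.0645 in mice 33 to 36. Ago4 then differed by -0.19, -0.14, -0.21 and -0.11, a mean of -0.16 ± 0.046 (SD, n = 4 mice), and Ago3 by 0.03, -0.30, -0.15 and 0.09. After the correction LNA218 was lower for 3, 9, 7 and 6 of the 10 genes in mice 33 to 36. In the fit with this correction the median log2 fold change of the 10 genes was -0.04, and the adjusted p of none passed the threshold. All 10 were still negative in that fit, against 49.2% of all genes tested. Ago4 was at -0.16 ± 0.10 (SE) in that fit, with an adjusted p of 0.946 by edgeR's quasi-likelihood test. That SE is wider than the SD of its 4 corrected differences. The correction was chosen with the pattern known, and it takes out whatever moves with GC content or length, whichever its source.

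**Figure D4:**
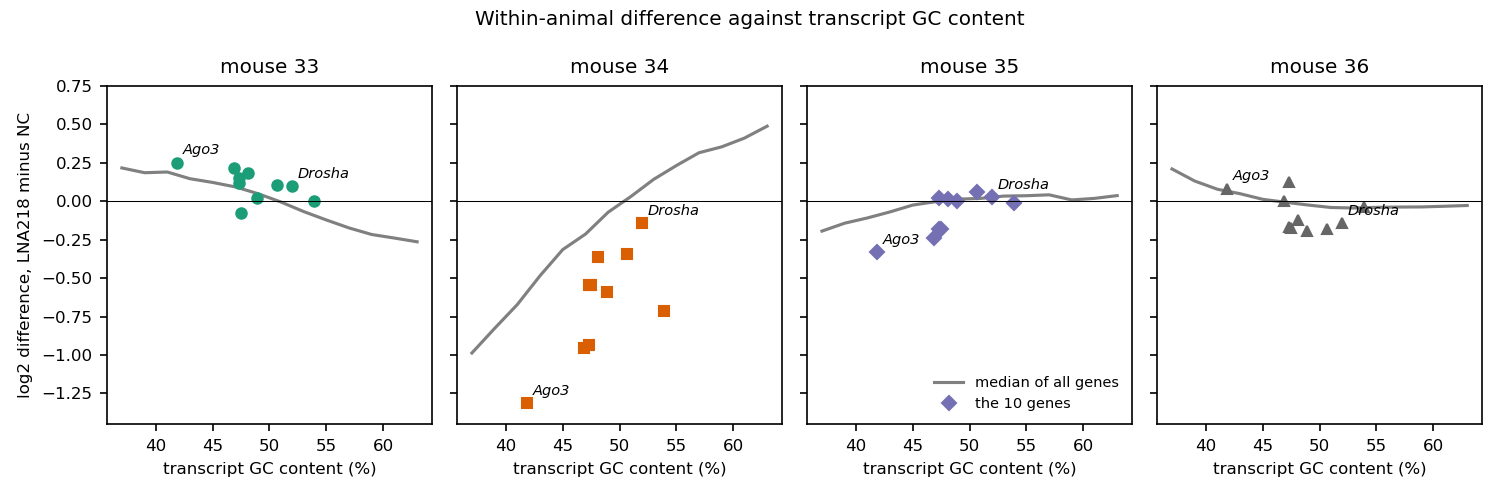
Median log2 difference (LNA218 minus NC) of all genes in bins of transcript GC content, in percent, for each mouse, as a line, with the 10 genes as points, Ago3 and Drosha named. The line falls with GC content in mouse 33 and climbs steeply in mouse 34, and the 10 genes of mouse 34 lie below its line.

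Per kilobase of the transcript with the longest coding sequence, the 10 genes kept the same order of level in both groups. Drosha was highest, with 24.7 ± 1.82 CPM per kb in LNA218 and 25.4 ± 0.629 in NC (SD, n = 4 each), followed by Ago1 with 11.3 ± 1.21 in LNA218 and 12.003 ± 0.782 in NC. Tnrc6c had 8.73 ± 1.29 CPM per kb in LNA218 and 9.92 ± 1.03 in NC. Dgcr8 came next with means of 7.76 CPM per kb in LNA218 and 8.16 in NC, then Tnrc6a with 5.60 and 6.39, Ago2 with 5.36 and 6.13, Dicer1 with 3.92 and 4.32, Tnrc6b with 2.82 and 3.33, Ago3 with 1.66 and 2.08, and Ago4 with 1.36 and 1.61, LNA218 first in each pair. In NC, the ranges of neighbours did not overlap between Drosha and Ago1, Ago1 and Tnrc6c, and Ago2 and Dicer1, while those of the other neighbours did. The order depends on which transcript sets the length: with the median length of the annotated transcripts, which is 682 bases for Ago3, Ago3 was first in NC with 47.5 CPM per kb.

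Within the Argonaute family, Ago1 made up 57.5 ± 1.72% of the summed level per length in LNA218 and 55.2 ± 2.12% in NC (SD, n = 4 each). Ago2 made up 27.2 ± 0.848% in LNA218 and 28.0 ± 1.31% in NC, Ago3 8.34 ± 1.61% and 9.40 ± 1.55%, and Ago4 6.98 ± 1.08% and 7.42 ± 0.8004%. The ranges of LNA218 and NC overlapped for each Argonaute. The family summed to 19.7 ± 2.22 CPM per kb in LNA218 and 21.8 ± 2.27 in NC. Tnrc6c made up 51.2 ± 2.66% of the TNRC6 sum in LNA218 and 50.7 ± 1.81% in NC, with Tnrc6a at 32.4% and 32.5% and Tnrc6b at 16.4% and 16.9%. The family sum was 17.2 ± 3.00 CPM per kb in LNA218 and 19.6 ± 2.50 in NC. The make-up of both families thus differed between the groups by less than the range over libraries. The shares themselves depend on which transcript sets the length. With the median length of the annotated transcripts, NC levels were 47.5 CPM per kb for Ago3 and 19.5 for Ago1. By that length Tnrc6a had 18.4, Tnrc6b 16.9 and Tnrc6c 10.1 CPM per kb in NC, so neither Ago1 nor Tnrc6c was the highest of its family.

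**Figure D5:**
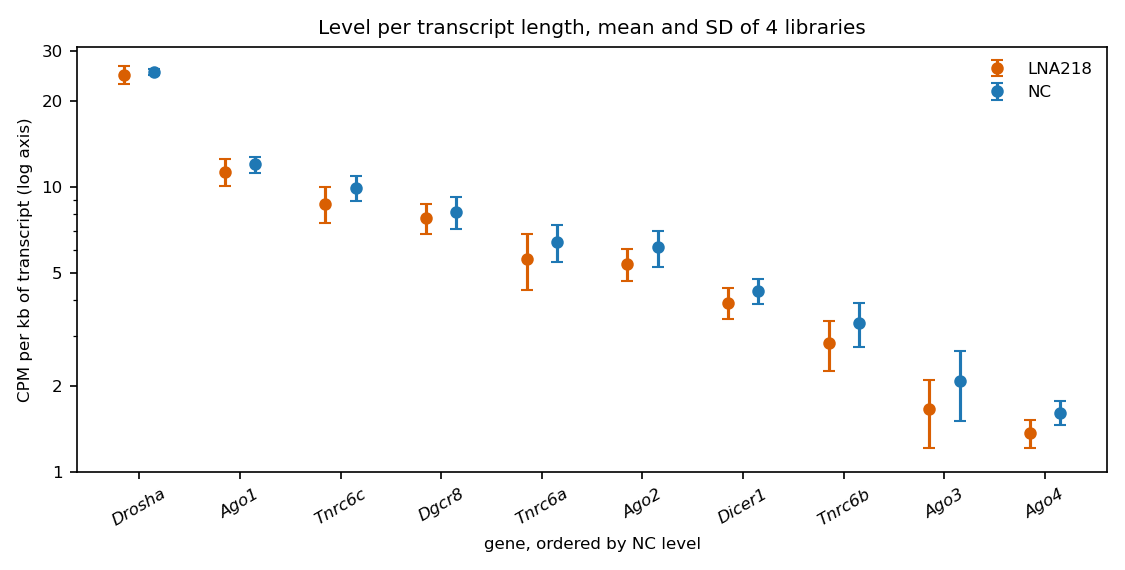
Level per kilobase of the transcript with the longest coding sequence (CPM per kb, log axis) of the 10 genes in LNA218 and NC, with points for the means of 4 libraries and bars for the SD. Drosha is highest at 24.7 in LNA218 and 25.4 in NC, and Ago4 lowest at 1.36 and 1.61.

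The 10 genes went up and down together over the libraries. Across the 8 libraries all 45 pairs of genes had a positive Pearson r of log2 CPM, with a median of 0.753 and a range of 0.275 to 0.973, the highest between Ago3 and Tnrc6b. The 12 pairs within the Argonautes, within the TNRC6 scaffolds or within the 3 processing genes had a median of 0.778. The libraries come in 4 pairs from the same mice and share the GC relation described above, so r is given as a description only. Likeness was also measured between each of 10502 other genes and the mean standardised profile of the 10 genes. The most alike were Usf3 (r = 0.990), Rasal2 (r = 0.989), Celf1 (r = 0.989), Ntrk3 (r = 0.988) and Smg1 (r = 0.987). An r above 0.9 was found in 508 of these genes (4.84%) and above 0.8 in 1455 (13.9%), so many genes outside the pathway had this profile. The genes named were chosen by their profile over these same 8 libraries. Fold changes like those of the 10 genes follow from that choice. On the log2 scale they were -0.21 ± 0.18 for Usf3, -0.20 ± 0.16 for Rasal2 and -0.12 ± 0.12 for Celf1, which encodes an RNA-binding protein (SE). Ntrk3, a neurotrophin receptor, was at -0.21 ± 0.17 and Smg1, the kinase of nonsense-mediated decay, at -0.32 ± 0.21 (SE).

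Genes with a miR-218-5p site were compared with those without, since loss of a microRNA is known to raise its targets. The 4 genes with a site (Ago2, Ago3, Ago4 and Tnrc6b) had a median log2 fold change of -0.24, and the 6 without a site had -0.12. GC content was 41.8% to 48.9% in the 4 genes with a site and 47.3% to 53.9% in the 6 without. Over all genes tested, the median was -0.04 for 1948 genes with a 7mer-m8, of which 62.3% were lower in LNA218. It was -0.0029 for 11739 genes without, of which 50.9% were lower. Genes with and without a site were not matched for length or GC content, with which the differences moved, and the part of these was not tested. The 560 genes with an 8mer had a median of -0.03. Counted by mice, 65 of the genes with a 7mer-m8 were lower and 97 higher in 4 of 4. Those counts were 17 and 36 for the genes with an 8mer, and 476 and 539 for those without a site. Without mouse 34 the median log2 fold change was -0.028 for the 4 genes with a site and -0.0005 for the 6 without. It was 0.02 for all genes with a 7mer-m8 and 0.032 for those with an 8mer, so each of these medians rests on that mouse. The median of all genes without a site was -0.0087 without mouse 34. None of the 4 genes with a site was higher in LNA218 by the test, and the intervals reach up to a log2 fold change of 0.10 for Ago2, 0.23 for Ago3, 0.08 for Ago4 and 0.18 for Tnrc6b.

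The partners of these genes in the wider pathway were examined through 8 lists holding 91 genes, of which 88 were tested. None passed the test, and 0 of 88 had an unadjusted p under 0.05 by edgeR's quasi-likelihood test. By fitted direction 58 were lower and 30 higher in LNA218, with a median log2 fold change of -0.04, which was 0.012 without mouse 34. Over all genes tested 52.8% were lower, or 51.6% without mouse 34. Genes of a list share libraries and are not independent, so the counts by direction are given as a description only. Of the 17 genes of the deadenylation complexes, the enzymes that TNRC6 proteins recruit, 14 were lower and 3 higher, with a median of -0.08, but without mouse 34 9 were lower and 8 higher, with a median of -0.005. Cnot4, a ubiquitin ligase linked to the CCR4-NOT complex, averaged 22.05 ± 4.85 CPM in LNA218 and 25.7 ± 3.37 CPM in NC, and Cnot6l, a catalytic deadenylase, 33.2 ± 8.54 CPM in LNA218 and 38.0 ± 4.34 CPM in NC (SD, n = 4 each).

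Of 15 decapping and translational repression genes, 12 were lower and 3 higher, with a median of -0.05, and without mouse 34 the counts were again 12 and 3, with a median of -0.025. Xrn1, the exonuclease that degrades decapped RNA, had a log2 fold change of -0.29 ± 0.20 and Dcp1b, a decapping cofactor, of -0.17 ± 0.12 (SE). For Xrn1 the difference was -1.10 in mouse 34 and between -0.16 and 0.22 in the other mice. Of 6 Dicer partners and tailing enzymes 5 were lower and 1 higher (median -0.068), among them the uridylyltransferases Tut7 (-0.17 ± 0.15) and Tut4 (-0.20 ± 0.21). Without mouse 34, 2 were lower and 4 higher, with a median of 0.028. Of 11 genes of microRNA decay 7 were lower and 4 higher (median -0.038), with Cul3, a ubiquitin ligase scaffold with 1 seed match, at -0.20 ± 0.17 and Eloc, encoding elongin C, at -0.14 ± 0.13. Without mouse 34, 4 of these 11 were lower and 7 higher, with a median of 0.032.

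Of 11 genes of nuclear processing and export 6 were lower and 5 higher, with a median of -0.0037, or 0.011 without mouse 34. Ran, the GTPase that drives export, was at 0.13 ± 0.10 and Ncbp1, a subunit of the nuclear cap-binding complex, at 0.13 ± 0.10 on the log2 scale. The 11 loading chaperones also divided into 6 lower and 5 higher around a median of 0, with Hspa8 at 0.08 ± 0.09 and Hsp90aa1 at -0.09 ± 0.11. Of 13 Argonaute cofactors 5 were lower and 8 higher, with a median of 0.042, which was 0.12 without mouse 34 and 0.0052 without mouse 33. Ajuba and Wtip, LIM-domain proteins whose human forms bind Argonautes, were the furthest apart: Ajuba averaged 2.84 ± 0.804 CPM in LNA218 and 1.88 ± 0.652 CPM in NC, and Wtip 7.52 ± 1.58 CPM in LNA218 and 5.97 ± 1.06 CPM in NC (SD, n = 4 each), with log2 fold changes of 0.61 ± 0.27 and 0.33 ± 0.15. Wtip was higher in 4 of 4 mice. Fxr1 (-0.17 ± 0.11) and, of the deadenylation list, Pabpc4 (-0.11 ± 0.10), singled out after their values were seen, were lower in 4 of 4. Of the 88 genes of all lists, 2 were lower and 1 higher in 4 of 4 mice. Over all genes tested the shares were 4.05% lower and 4.58% higher in 4 of 4. The last list held PIWI proteins, the germline relatives of Argonautes, and genes linked to them. Its 4 tested genes were Piwil2, Henmt1, Pld6 and Tdrkh, of which only Piwil2 encodes a PIWI protein, as Piwil1 and Piwil4 were not tested. Of these, 3 were lower and 1 higher (median -0.13, or -0.016 without mouse 35). Piwil2 averaged 0.602 CPM in LNA218 and 0.775 CPM in NC.

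In the authors' deposited table of the same comparison, which comes from a likelihood-ratio test by its header, 7 of the 10 genes had a negative and 3 a positive log2 fold change. The authors' deposited table gave values between -0.21 for Ago3 and 0.02 for Drosha, with a median of -0.04. It had 35 of 14884 genes (0.235%) at an adjusted p under 0.05, 22 lower and 13 higher, and 0 of the 10 genes among them. Ago3 had the smallest p of the 10 in the authors' deposited table, 0.0217, with an adjusted p of 0.399 there. The adjusted p of the other 9 in the authors' deposited table lay between 0.820 for Ago2 and 0.994 for Tnrc6c.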

How the data were processed

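The 10 genes, the wider lists and the tests were chosen with earlier results of these data known. The authors deposited estimated counts per gene for 8 libraries, and 71.2% of these values carry decimals. The tools Salmon and edgeR and the build GRCm39 appear, per the submitters' processing notes, without versions or roles. Libraries were made with an NEB Next Ultra RNA kit, per the labels' protocols. A deposited sheet of natural log values equalled ln(CPM + 1) from the deposited counts to within 0.00303, and was used for that check only. The authors' deposited table gives log2 fold changes, a likelihood-ratio score, p-values and adjusted p-values per gene, per the file headers.

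Estimated counts were rounded, filtered with filterByExpr (minimum count 10, leaving 14506 of 14884 genes), TMM-scaled and fitted with edgeR 4.0.16 (R 4.3.3, limma 3.58.1), with the animal as a block and 3 residual degrees of freedom. Errors of log2 fold changes are SE, with a median of 0.142 over all genes. The fit was first tested on simulated counts. The block follows from the design, as same-numbered libraries come from 1 mouse. Correlations of same-numbered deviations were 0.079, -0.627, 0.446 and 0.194 in mice 33 to 36. No library repeated another: between any pair, the median chi-square over genes was at least 1.64, above that of sampling noise alone. Alternatives used DESeq2 1.42.0 and sva 3.50.0, among others. Named genes outside the 10 were the 2 with the smallest p in each list and the 5 most alike in profile, plus Fxr1 and Pabpc4, named after their values were seen. Transcript length, GC content and 3′ UTR, each of the transcript with the longest coding sequence, came from GENCODE M21 on GRCm38. They were matched by name for 14210 tested genes (98.0%). Since this build differs from the authors', no genomic coordinates of the 10 genes are given. The microRNA sequence and its coordinates came from RefSeq (GRCm38.p6). Counting errors cover sampling of reads only.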

Additional observations from a re-analysis of the deposited data

Results flagged for a closer look

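In groups of 4 values, the highest or lowest value was set against the spread of the others by Dixon's criterion, which chance alone meets in about 1 in 20 groups, and 2 of 30 groups met it. For Ago1, NC of mouse 34 had a log2 CPM of 6.57, against 6.38 to 6.41 in the other NC libraries. For Tnrc6c, the difference of LNA218 minus NC in mouse 34 was -0.71 on the log2 scale, against -0.04 to 0.00 in the other mice. Both values come from mouse 34, whose difference over all genes followed GC content with a Spearman rho of 0.688, and the part of that relation in them was not tested.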

How the results depend on the processing

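With 4 mice, the 95% intervals of all 10 fold changes span 0, and counting error at the lowest count was 2.24% to 7.78%. Over 16 alternatives to the fit, 150 of 160 fold changes of the 10 genes kept their sign, 10 turned positive, and none passed the test, with adjusted p between 0.840 and 1. Without the replicate block the median over the 10 genes was -0.19 and still 10 were lower. The count of genes past the threshold, 0 in the test reported, was 13 with DESeq2, 11 with the likelihood-ratio test, 8 with 1 surrogate variable, 13 without mice 34 and 36, and 0 to 12 when 1 mouse was left out, with 12 without mouse 34. The number of the 10 genes lower in LNA218 was 6 to 10 with 1 mouse left out and 5 without mice 34 and 36, where their median was 0.0008. Without mice 34 and 36, whose LNA218 libraries had the highest choroid plexus sums, the log2 fold changes were 0.082 for Ago1, 0.0096 for Ago2, 0.070 for Dicer1, 0.061 for Drosha and 0.099 for Dgcr8. With 1 surrogate variable Dgcr8 was at 0.0105. With 1 mouse left out, Ago1 ran from -0.15 to 0.0001, Ago3 from -0.52 to 0.0048, Tnrc6a from -0.33 to 0.034 and Dgcr8 from -0.15 to 0.031, the highest without mouse 34 in each case. Ago4 stayed negative under each of the 16 alternatives, between -0.30 and -0.13, but was at only -0.065 in the authors' deposited table. With a term for the hemisphere side the median was -0.13. The medians of the groups by role and by site were recomputed with each mouse left out, an alternative chosen after seeing the data. The cause of these changes was not tested.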
